A study of Homo sapiens with 2 samples.

Results

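MKN1 is an established human gastric cancer cell line, and the miRNAs described here are those of MKN1 cells kept under normoxia, at 20% O2, in a 24 h experiment. The same experiment holds 1 array of MKN1 cells kept at 1% O2 (hypoxia), which is used here only for the probes without a signal at 20% O2. Both arrays carried total RNA, with 1 array per condition and no treatment in the labels other than the oxygen level. Members were all probes with a signal above 0 on the normoxia array, which gave 665 of 1329 probes, 511 of 879 for mature miRNAs and 154 of 450 for precursors, the hairpins from which mature miRNAs are made. The values are normalised signal intensities on a linear scale. The lowest signal listed was 20. The other probes were given as 0, and the sources used here do not state what a 0 stands for. The labels do not say whether more than 1 culture went into the RNA, and the single array limits the precision of every value, so no error and no test can be given. Probes of different sequence bind and label differently, so the order of signals below is an order of brightness on this array and not of the number of molecules in the cells.

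A miRNA is cut from the hairpin of a longer transcript, and 1 strand of the resulting duplex, the guide, is kept by an Argonaute protein, while the other, the passenger or star strand, is mostly degraded. The seed, bases 2 to 8 from the 5′ end, pairs with messenger RNAs and lowers their translation and stability. miRNAs with the same seed form a family and tend to share targets. Many miRNAs mark a cell type, and others, such as miR-21 and the let-7 family, are found in most cultured cells.

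The sequences of the brightest miRNAs whose RefSeq entry was matched are shown here, because they show which of the bright probes share a seed and how little some of them differ. All are RefSeq sequences of the GRCh38.p14 build, written 5′ to 3′ with the seed in capitals.
miR-23a: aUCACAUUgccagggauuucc
miR-23b: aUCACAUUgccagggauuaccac
miR-27a: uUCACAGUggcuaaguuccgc
miR-27b: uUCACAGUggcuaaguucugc
miR-24: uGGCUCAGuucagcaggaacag
miR-24-1*: uGCCUACUgagcugauaucagu
miR-24-2*: uGCCUACUgagcugaaacacag
miR-21: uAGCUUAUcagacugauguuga
miR-22: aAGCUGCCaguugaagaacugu
miR-195: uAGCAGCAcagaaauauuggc
miR-16: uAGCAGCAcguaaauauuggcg
let-7a: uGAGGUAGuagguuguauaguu
miR-93: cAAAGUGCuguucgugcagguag
miR-17: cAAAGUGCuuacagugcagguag

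Most of the mature signal came from a small number of probes. The 511 mature signals summed to 1017189, with a median of 384 and quartiles of 118.3 and 1472, and the highest was 59096. The 10 brightest probes held 32.7% of the mature signal, the 20 brightest 44.5%, and 27 probes together reached 50%. It took 159 probes to reach 90%. At the other end, 109 mature probes lay under 100 and together held 0.581% of the signal. The signals just above the limit of listing were 20 for miR-323-5p, 20.33 for miR-10a*, miR-527 and miR-640, and 20.67 for miR-935.

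**Figure D1:**
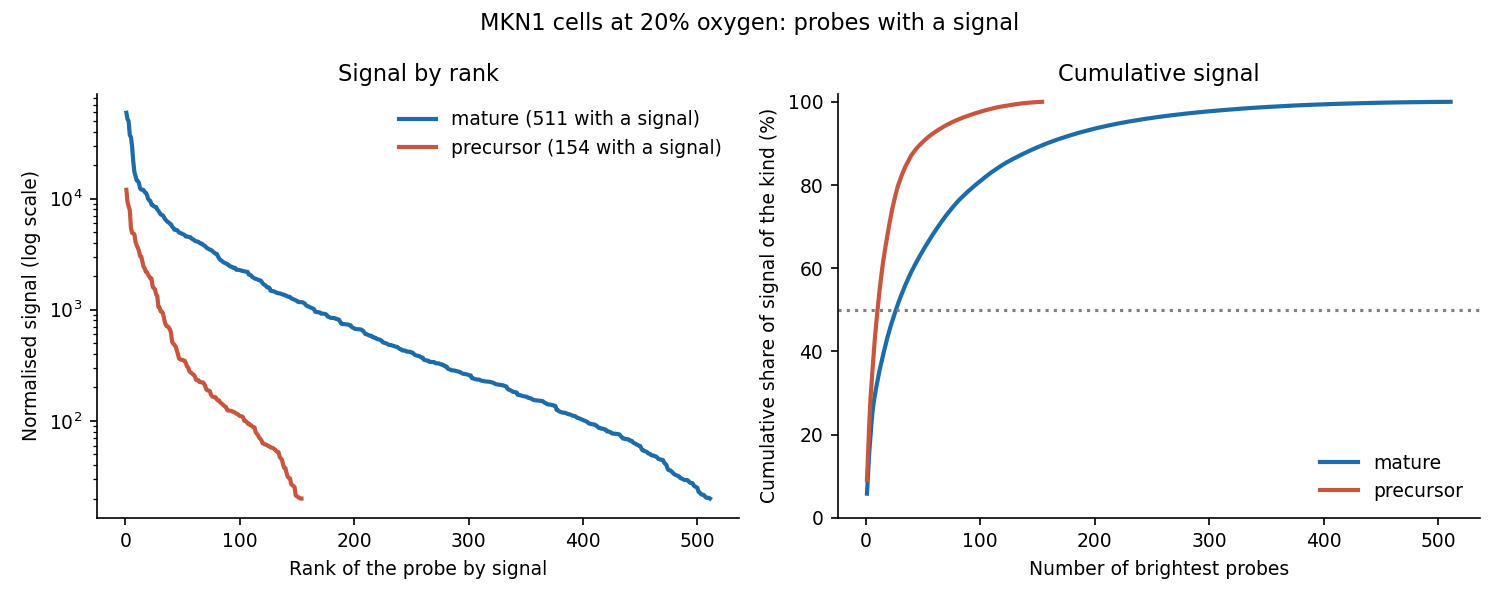
Normalised signals of the probes listed on the normoxia array (vertical axis, log scale) against their rank by signal (horizontal axis), for mature and for precursor probes, 1 array. The mature curve starts at 59096 and the precursor curve at 11992, and both end at the lowest listed signal of 20.

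miR-23a gave the highest signal of the array at 59096, which was 5.81% of the mature signal. miR-21, an abundant miRNA of many tumours that represses the tumour suppressor PDCD4, followed at 51865, or 5.10%. miR-23b gave 49640, miR-27a 37228 and miR-27b 29535. miR-23, miR-27 and miR-24 are made from a pair of gene clusters, one on chromosome 19 and one on chromosome 9, each of which carries a miR-23, a miR-27 and a miR-24 hairpin. These clusters thus contributed 4 of the 6 brightest mature probes. miR-24, which is identical from both clusters and is known to restrain E2F2 and MYC, gave 17399. Its passenger strands, which differ between the hairpins, gave 14581 for miR-24-2* and 11941 for miR-24-1*.

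On chromosome 19, miR-23a lay at chr19:13836595-13836615, miR-27a at chr19:13836447-13836467 and miR-24 at chr19:13836289-13836310, all on the minus strand within the span of the noncoding gene MIR23AHG. On chromosome 9, miR-23b lay at chr9:95085265-95085287, miR-27b at chr9:95085505-95085525 and the other copy of miR-24 at chr9:95086064-95086085, all on the plus strand within the span of AOPEP, an aminopeptidase gene. All 6 mature probes of the chromosome 19 cluster had a signal, from 48 to 59096, and held 12.7% of the mature signal. All 6 of the chromosome 9 cluster did too, from 222.3 to 49640, with 10.7%, and the shared miR-24 probe is counted in each. With that probe counted once, both clusters and their passenger strands held 21.7%. Which cluster a miR-24 molecule came from cannot be told apart by its sequence. For miR-27a and miR-27b, which differ by C19U counted from the 5′ end, the signals differed by 1.26 times, and each probe may also bind the other miRNA.

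miR-1259 gave 35695 and miR-1826 21650, the fifth and the seventh highest mature signals. Both names are known from later annotation as pieces of other RNAs, miR-1259 of a small nucleolar RNA and miR-1826 of 5.8S ribosomal RNA, and miR-1308, a tRNA piece, gave 12338. Of 15 such names listed here and on the array, 11 had a signal, 73.3% against 58.1% of all mature probes. They held 7.31% of the mature signal. The list came from background knowledge and may leave out other fragments, so this share covers only the names on it. The other named fragments were dimmer, such as miR-720 at 2471 and miR-1246 at 602.7. miR-1201, miR-1274a, miR-1274b and miR-1280 were at 0. The remaining probes of the 20 brightest were miR-22 at 15855, miR-195 at 14392, miR-595 at 13815, miR-1260 at 12038, let-7a at 11977, miR-93 at 11413, miR-34b at 11266, miR-16 at 10800 and miR-1282 at 9957. miR-22 lay at chr17:1713914-1713935 in the noncoding MIR22HG and the brighter miR-21 at chr17:59841273-59841294 within the span of VMP1.

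Grouped into families, the mature signal was led by miR-23 with 10.7%, miR-27 with 6.56%, miR-21 with 5.10%, let-7 with 4.93% and the miR-17 family with 4.23%. miR-23 and miR-27 together held 17.3%, with miR-24 they held 19.0%, and with miR-21 also 24.1%. The 33 families and clusters listed for this description held 51.3% of the mature signal. A signal was listed for 94 of their 98 probes, 95.9%, against 58.1% of all mature probes. These families were picked as well-known miRNAs, so their share says nothing particular to them.

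**Figure D2:**
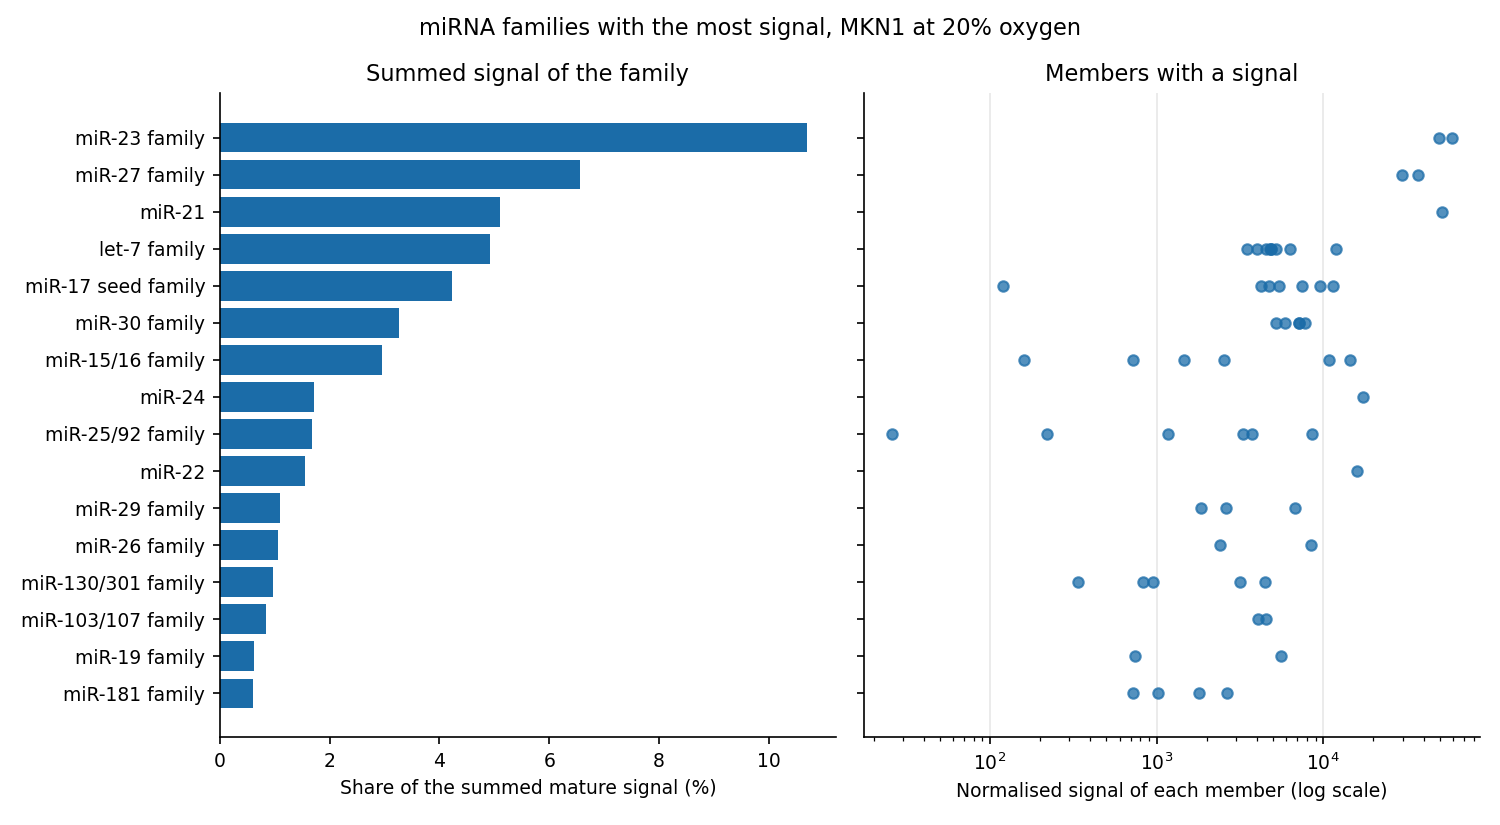
Percent of the summed mature signal of the normoxia array held by each listed miRNA family (horizontal axis, linear from 0), ordered by share, 1 array. The miR-23 family is the longest bar at 10.7%, followed by miR-27 at 6.56% and miR-21 at 5.10%.

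The let-7 family, which represses RAS and HMGA2 and is abundant in differentiated cells, was present as a whole. All 9 members had a signal, from 3510 for miR-98 to 11977 for let-7a, a range of 3.41 times. Between let-7a and let-7c, which differ by A19G only, the signals were 3.00 times apart. Part of each signal may come from the neighbour, which was not tested. The miR-30 family, which represses the SNAI1 transcription factor, was more even still, with all 5 members between 5243 and 7779.

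miR-17 and its relatives promote cell cycle entry by repressing CDKN1A, and come from 3 gene clusters on chromosomes 13, 7 and X. All 7 members with this seed had a signal. miR-93, which lay at chr7:100093815-100093837 within the span of the replication gene MCM7, gave 11413 and miR-17, at chr13:91350618-91350640 in MIR17HG, gave 9624. miR-519d, which has the same seed but is made from a primate cluster on chromosome 19, gave 119. Within MIR17HG, 9 of 12 mature probes had a signal, from 119.7 for miR-92a-1* to 9624 for miR-17, and held 2.48% of the mature signal. Among the miRNAs of that transcript, miR-19b gave 5604 and miR-19a 744.3, although these differ by C11U only. miR-19b is also made on the X chromosome. With the miR-18, miR-19 and miR-25/92 families added, the miR-17 group held 6.82%.

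The miR-15/16 family, which represses BCL2 and cyclins, had all 6 members listed and a wide range, with 14392 for miR-195, 10800 for miR-16, 2546 for miR-15a, 1460 for miR-424, 726 for miR-15b and 159.7 for miR-497. miR-195 and miR-497 lie close together on chromosome 17 and can be cut from 1 transcript, and their signals were 90.1 times apart. The miR-29 family, which represses collagen genes, ranged between 1844 for miR-29c and 6761 for miR-29b, and miR-26a gave 8404 against 2386 for miR-26b. miR-34a, a direct target of p53, gave 5233, while the other members of its family gave 376 at most. miR-34b, which on this array is the 3′ strand of its hairpin and has another seed, gave 11266. miR-31 gave 1858, miR-221 3475 and miR-222 2213.

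Some miRNAs often studied in cancer were at 0 or lay between the quartiles of the listed mature signals, 118.3 and 1472. miR-155, an oncogenic miRNA of lymphocytes, was at 0, as were miR-10b, miR-216a and miR-217. Of these 4, miR-217 was at 0 on the hypoxia array as well. miR-210, known for its induction in hypoxia, gave 383 at 20% O2. miR-10a gave 477.7, miR-125b 664 and miR-100 314.3. miR-382, of which the study examined the role in blood vessel formation, gave 401.7. It was named here for that reason and lies outside the lists.

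Probes for miRNAs of 9 cell types were read against the gastric cancer origin of MKN1. Of these, 39 of 52 had a signal, 75%, against 58.1% of all mature probes. The miR-200 family, which keeps cells epithelial by repressing ZEB1 and ZEB2, was fully listed but not bright. In the epithelial list, all 7 probes had a signal, 1203 for miR-141, 668 for miR-200a, 329.3 for miR-200b, 278.3 for miR-203, 204.3 for miR-205, 171.3 for miR-200c and 93.33 for miR-429. Together they held 0.290% of the mature signal. Star strands of these hairpins, outside the list, ran from 0 for miR-141* and miR-200a* to 66.33 for miR-200b*. Their precursor probes ran from 0 for miR-200a and miR-203 to 1047 for miR-200c and 2193 for miR-205. Of the gastrointestinal list, miR-192 gave 386.3, miR-194 339.3 and miR-215 68.67, while miR-375, typical of gastric and endocrine cells, was at 0. This set held 0.0781%.

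**Figure D3:**
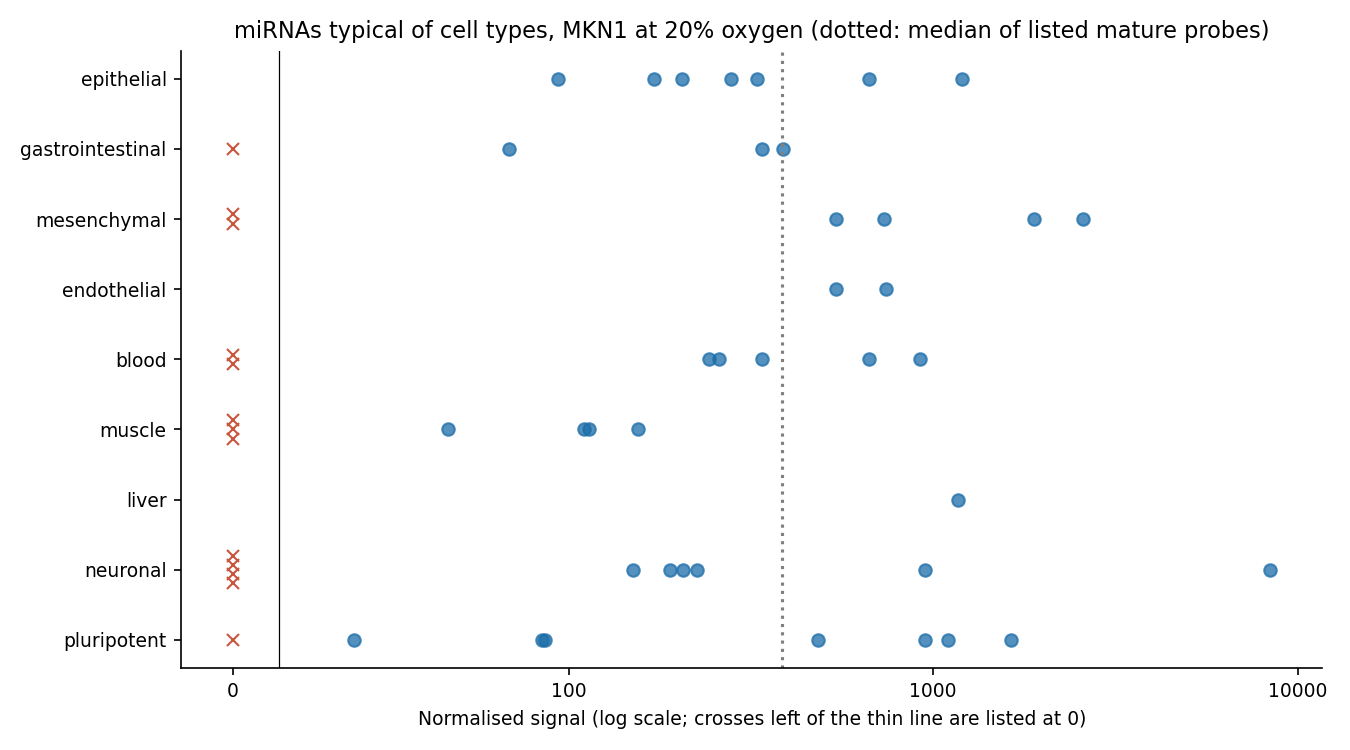
Normalised signals of the probes in each cell type list (horizontal axis, log scale), 1 point a probe, 1 array, with probes given as 0 as crosses at the left and the median of all listed mature probes, 384, as a dotted line. The epithelial probes lie between 93.33 and 1203 and overlap with the blood probes, between 242 and 921.3, and with the mesenchymal probes, between 541.3 and 2569.

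Probes for miRNAs typical of cell types other than epithelium also had signals. Of the blood list, 5 of 7 were listed, 71.4% against 58.1% of all mature probes. These were 921.3 for miR-142-5p, 666 for miR-150, 338.3 for miR-142-3p, 258.3 for miR-223 and 242 for miR-486-5p. The red cell miRNAs miR-144 and miR-451 were at 0. This list held 0.238% of the mature signal and its range overlapped with that of the epithelial list. Strands of the blood hairpins outside the list ran from 0 for miR-150* and miR-223* to 1914 for miR-486-3p. The mesenchymal list had miR-199a-5p at 2569, miR-214 at 1895, miR-145 at 734.7 and miR-143 at 541.3, with miR-199a-3p and miR-199b-5p at 0. It held 0.564%. miR-199a-5p and miR-199a-3p are strands of the same hairpins, so a signal of 2569 stood beside a 0 within 1 duplex. The endothelial strands miR-126 and miR-126* gave 741.3 and 539.7.

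miR-122, the dominant miRNA of hepatocytes, gave 1171. Of the muscle list, miR-206 gave 155.3, miR-133b 114, miR-1 110.3 and miR-133a 46.67, while the heart and slow muscle miRNAs miR-208a, miR-208b and miR-499-5p were at 0. Of the 10 neuronal probes counted, miR-129-5p gave 8417, or 83.0% of their summed signal. miR-9 gave 951.7 and the next 4 lay between 150 and 225. The neuronal miRNAs miR-124, miR-137, miR-153 and miR-219-5p were at 0. Strands of these hairpins outside the list ran from 0 for miR-124* and miR-218-1* to 3776 for miR-138-1* and 4543 for miR-219-2-3p. The listed miR-128 was not counted, since the array names it miR-128a, at 227, and miR-128b, at 237. Of 8 pluripotency miRNAs, 7 were listed, 87.5% against 58.1% of all mature probes. They were led by miR-373 at 1631 and miR-302d at 1099, while miR-371-3p was at 0. Related probes outside the list ran from 0 for miR-302f to 2719 for miR-302e, and miR-371-5p gave 827. Of the 13 cell type probes at 0, 8 were at 0 on the hypoxia array as well. What part binding of other RNAs had in these signals was not tested.

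The guide, taken as the strand without a star in its name, was the brighter strand in most hairpins with a star probe on the array. Of 171 such pairs, both strands were listed in 75, the guide alone in 67, the star strand alone in 8 and neither in 21. Within the 75, the guide was brighter in 60 and the star strand in 14, and the strands of miR-425 had equal signals. The median ratio of guide to star signal was 7.63. For miR-23a, the guide gave 59096 and the star strand 746.3, a ratio of 79.2. For miR-21 the signals were 51865 and 273.3, and for miR-27a 37228 and 48, ratios of 190 and 776. The miR-27a* probe was 1 of 2 probes with a signal that the deposited table did not mark as detected. miR-195*, miR-93*, miR-25* and both star strands of miR-16 were at 0.

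For miR-24 the guide was also the brighter strand, but by less, at 1.46 times miR-24-1* and 1.19 times miR-24-2*. A probe of the older name of miR-24-1*, miR-189, gave 125, against 17399 for the guide, so the small ratio to miR-24-1* rests on which probe is read. The star strands share the seed GCCUACU and held 2.61% of the mature signal. In other hairpins the star strand was the brighter one, with 6094 for miR-550* against 170 for miR-550, 5115 for miR-335* against 653 for miR-335, 3776 for miR-138-1* against 225 for miR-138 and 2286 for miR-1228* against 30.33 for miR-1228. miR-505* gave 1227 with its guide at 0. Among 81 hairpins whose probes are named by arm, the 5p strand alone was listed in 9, the 3p strand alone in 16 and both in 39. miR-34c-3p gave 3567 and miR-34c-5p 53, miR-338-3p 7978 and miR-338-5p 322.3, and miR-129-5p 8417 and miR-129-3p 29.

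**Figure D4:**
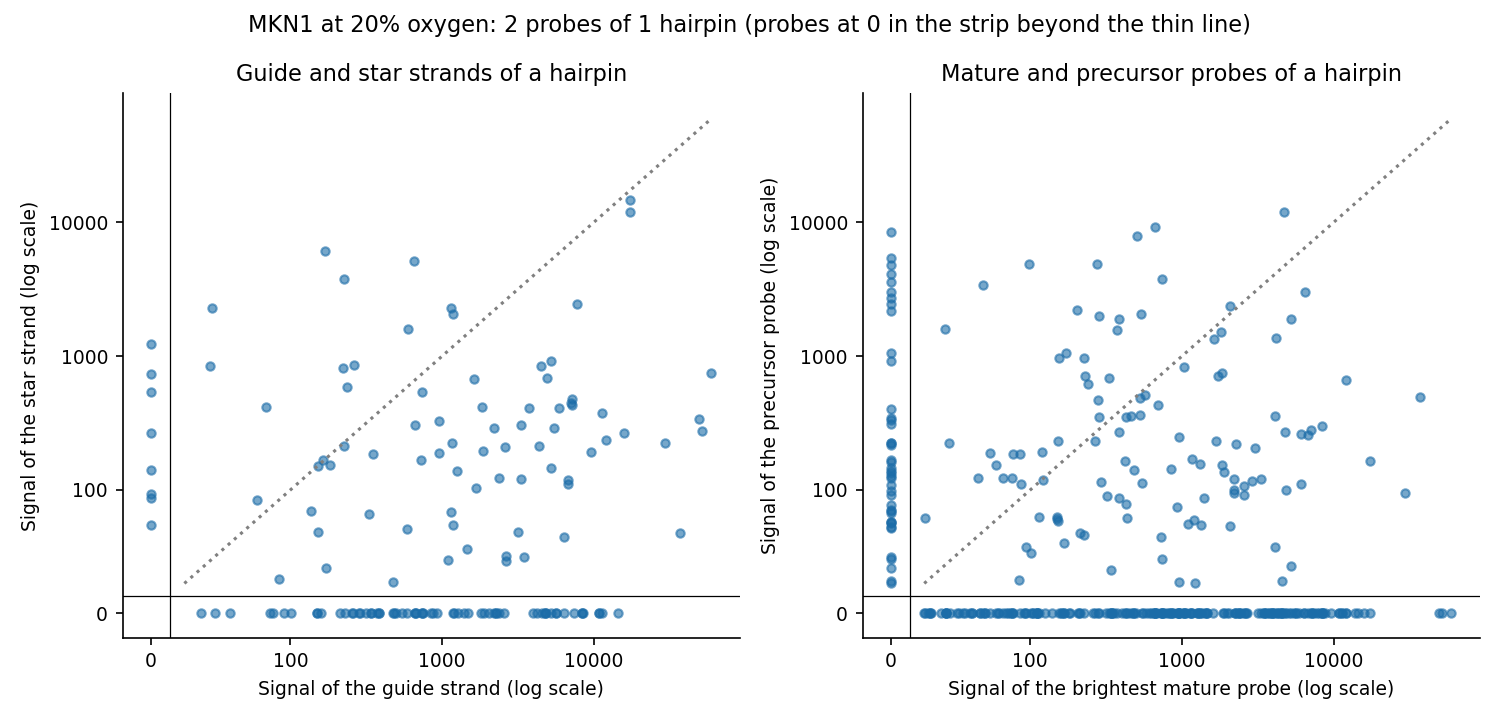
Guide against star strand signals (one panel) and mature against precursor signals (the other panel), both axes on log scales, 1 point a hairpin, 1 array, with probes given as 0 in a strip beyond the thin line. Of 75 hairpins with both strands listed, 60 lie on the guide side of the line of equal signals, and of 111 with mature and precursor listed, 77 lie on the mature side.

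Precursor probes held 11.5% of the summed signal of the array, 132630 of 1149819, and 34.2% of them had a signal. The median listed signal was 163.5, and the 10 brightest held 49.4% of the precursor signal. The brightest were the hairpins of miR-147 at 11992, miR-566 at 9298, miR-155 at 8518, miR-594 at 7876, miR-662 at 5445, miR-575 at 4918, miR-565 at 4851, miR-627 at 4787, miR-587 at 4079 and miR-585 at 3793. Of these, miR-594 and miR-565 are also names on the list of fragments of other RNAs. None of the 10 names was among the 20 brightest of the 879 mature probes. These 20 are a small part of all mature probes, so the lack of overlap says little. A precursor probe can also bind the mature strand or the longer transcript, which these signals do not separate.

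Of the 450 precursor probes, 445 had a mature probe of the same hairpin on the array. Both were listed in 111, the mature miRNA alone in 201, the precursor alone in 42 and neither in 91. The precursors of miR-23a, miR-23b, miR-21, miR-22 and miR-24-2 were at 0, and those of miR-27a, miR-24-1 and miR-27b gave 495.3, 163.3 and 94.67. Of 17 hairpins whose mature signal reached 10000, the precursor was at 0 in 13. The single mature probe of let-7a, of miR-16 and of miR-24 was counted there for each of its hairpins. Where the mature signal reached 1000, the precursor was at 0 in 91 of 136 hairpins. Of all 450 precursor probes, 296 were at 0. For miR-155 the precursor signal was 8518, with both mature strands at 0. For miR-662, miR-627 and miR-587 the precursors gave 5445, 4787 and 4079, with mature probes at 0. Over the 111 hairpins with both listed, Spearman's rho between precursor and mature signal was 0.039, across hairpins that share 1 array. Precursor probes of a later group of names, from miR-532 to miR-663, were spelled differently in the table, and these 129 probes held 57.2% of the precursor signal, with 58 listed, against 96 of the other 321.

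Clusters of miRNA genes differed widely in how many of their probes were listed. The counts cover the 687 mature probes matched to a hairpin of the RefSeq table, so that a cluster may hold further probes. The C19MC cluster on chromosome 19, a primate cluster active in placenta, had 12 of 55 mature probes listed, 21.8% against 58.1% of all mature probes, with 329.3 as the highest signal, for miR-525-3p. In 14q32, the imprinted DLK1-DIO3 region of chromosome 14, the larger cluster had 18 of 45 probes listed, between 27.67 and 2204, and the smaller one 6 of 13. miR-370 of the same region, not matched to the table and so not counted there, gave 8734, the highest of the 14q32 probes named here, and was named after its value was seen. The cluster of miR-302 and miR-367, typical of embryonic stem cells, had 8 of 10 listed, up to 1099. By contrast, all probes of both miR-23 clusters were listed.

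Some RNAs were probed under an old and a present name, paired here from background knowledge, and the signals of each pair were set side by side. What set the probes of a pair apart was not tested. miR-17 gave 9624 and, as miR-91, 9514, and miR-128 gave 237 and 227 under its b and a names. miR-126* and miR-123 gave 539.7 and 353, and miR-378 and miR-422b 181.7 and 510. For the other pairs the probes differed strongly, with 11941 for miR-24-1* and 125 for miR-189, and with 29.33 for miR-181a* and 1447 for miR-213. The ratio within a pair thus ran between 1.01 and 95.5, over 6 pairs with a signal on both probes, and miR-376c and miR-368 were both at 0. The bright star strand miR-24-1* rests on 1 probe whose partner of the older name was dim, and the sequences of these probes were not analysed here.

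**Figure D5:**
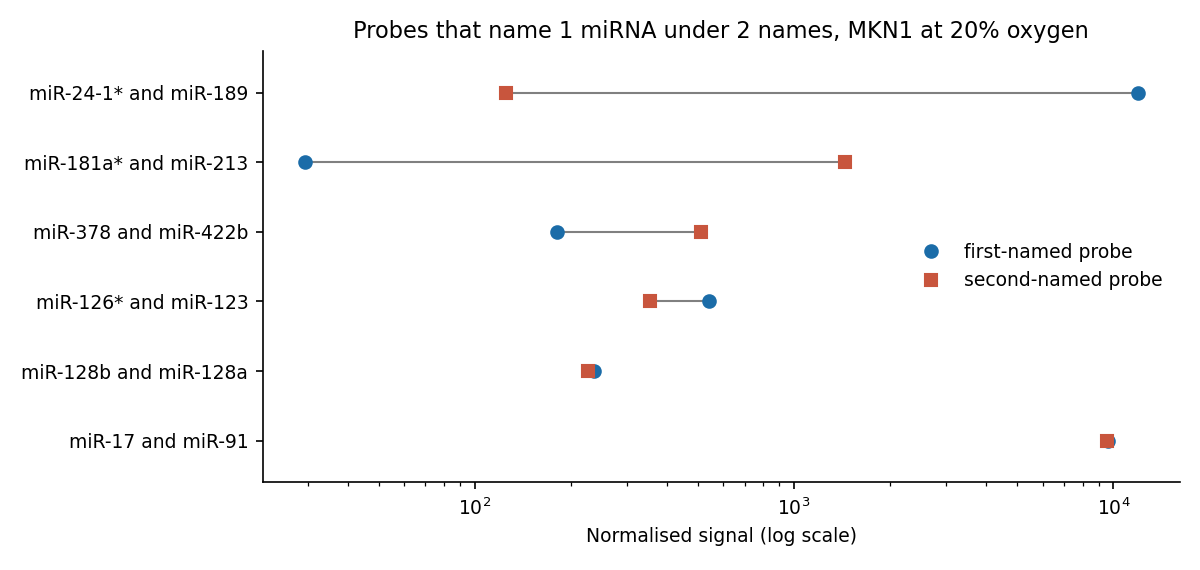
Normalised signals (horizontal axis, log scale) of probes for the same miRNA under 2 names, 1 line a pair and 1 point a probe, 1 array. miR-17 and miR-91 lie together at 9624 and 9514, while miR-24-1* at 11941 and miR-189 at 125 lie 95.5 times apart.

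Probes of near-identical sequences were set side by side in the same way. Of 59 pairs of mature probes whose matched sequences differ by at most 2 edits, 42 had both listed, 25 of them within 2-fold, with a median ratio of 1.78. miR-103 and miR-107, which differ by G22C, gave 4552 and 4079, and miR-17 and miR-106a, which begin with C1A, 9624 and 4758. The widest pair was miR-204 at 1340 and miR-211 at 76.33, which differ by A17U and U18C. In 15 pairs both were at 0 and in 2 pairs 1 was. Several of these pairs share a member, as within the let-7 family.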

How the data were processed

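The authors labelled total RNA with biotin at uncapped 5′ ends and hybridised it to a GenoSensor human array with probes from miRBase version 13. The authors read the spots with GeneSpring GX and scaled each array on its global intensity, and the deposited intensity values are linear. No version of that program is given in the sources used here. All 158 signals under 100 lay within 0.02 of a multiple of 1/3, the spacing of means of 3 spots. The deposited ratio and p-value columns hold the authors' own comparison of conditions and were not used. The values of the 2 deposited tables were identical for all 1329 probes.

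Probes with "-pre" in their name, in either case, were taken as precursors. Shares are sums of signals, with no filter or pseudocount, and with 1 array no test was made. The miRNAs named are the 20 brightest mature and 10 brightest precursor probes, members of the 33 family, 9 cell type and 1 fragment lists, those at the limit of listing, and the strand and precursor pairs with the brightest partner or with the passenger or precursor the brighter one. The remaining names were chosen after their values were seen, as were the pairs of old and present names, which with the guide arms come from background knowledge. In the miR-34 list, miR-34b was replaced by miR-34b* after the names on the array were seen. Members and lists were chosen with earlier results of these data known. Mature sequences and positions are from RefSeq, GRCh38.p14, of which 435 mature probes matched by name. miRNA genes within 10 kb were taken as a cluster. Alternatives were the other deposited table, limits of 50 and 100, subtraction of the lowest signal, zeros read as the lowest signal, fragments left out and another total. The scripts were tested on simulated data. Python 3.11.15, numpy 2.4.6, pandas 2.3.3, scipy 1.17.1 and matplotlib 3.10.9 were used.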

Additional observations from a re-analysis of the deposited data

Results flagged for a closer look

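The hypoxia array is used in this report only for probes at 0 on the normoxia array. Of the 368 mature probes at 0 on the normoxia array, 86 had a signal on the hypoxia array and 282 were at 0 on both. These 86 signals had a median of 30, and 83 of them lay under 100. The exception in size was miR-526b of the C19MC cluster, with 0 on the normoxia array and 17508 on the hypoxia array. With 1 array per condition, a change in the cells cannot be told apart from a difference between the arrays.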

How the results depend on the processing

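The counts of mature and precursor probes with a signal and of probes that reach 50% stayed within 1.5 times under every alternative run. They were 402 to 511, 105 to 154 and 26 to 28. The miR-23 family stayed the brightest, which these settings could hardly change, since it summed to 108736 against 66763 for miR-27. The other deposited table gave the same values. The share of the 10 brightest mature probes, 32.7%, was 33.0% with the lowest listed signal subtracted and 32.9% with signals under 100 read as 0. It was 32.5% with zeros read as the lowest listed signal and 32.2% without the listed fragments of other RNAs. Over mature and precursor signals together it was 28.9%, and without the brightest probe 30.0%. Under the first 4 of these settings, in the same order, the precursor share, 11.5%, was 11.4%, 11.4%, 11.9% and 12.3%, the miR-23 share, 10.7%, was 10.8%, 10.8%, 10.6% and 11.5%, the let-7 share, 4.93%, was 4.96%, 4.96%, 4.89% and 5.32%, and the miR-17 family share, 4.23%, was 4.26%, 4.26%, 4.20% and 4.57%. The precursor share of 12.3% came with fragments left out of the mature signals only. Precursor probes of listed fragments stayed in, such as miR-594 at 7876 and miR-565 at 4851. With signals under 50 read as 0, the let-7 share was 4.94% and the miR-17 family share 4.24%. Over mature and precursor signals together, the miR-23 share was 9.46%. With miR-91 added, an alternative chosen after seeing the data, the miR-17 family share was 5.17%.

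No paired analysis was possible because each condition had 1 array. Signals near the lowest listed value of 20 and zeros have no order. Leaving out an array was not possible either.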

Other observations

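Names of the later numbers, miR-1178 and above, made up 129 of the mature probes. Of these 64 had a signal, 49.6% against 58.1% of all mature probes, and they held 15.8% of the mature signal, with miR-1259, miR-1826, miR-1308, miR-1260 and miR-1282 among the 20 brightest mature probes. Star probes were listed for 83 of 172 names, 48.3%, and held 7.18% of the mature signal, while 63.7% of the probes named by arm and 59.6% of those with neither a star nor an arm in the name were listed.

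The base composition was compared over the 435 mature probes with a matched RefSeq sequence, of which 284 had a signal and which held 69.7% of the mature signal. miRNAs that begin with U, the base that Argonaute proteins favour at the 5′ end, were listed for 132 of 184 probes and held 55.7% of the matched signal, with a median of 733.65. Those that begin with G were listed for 25 of 42, with a median of 154.7 and 2.64% of the signal. The percentages listed were 71.7% for U, 59.5% for G, 58.9% for A and 63.7% for C. What lay behind these differences was not tested. miRNAs with a GC content of 40% to under 50% were listed for 110 of 150 probes, 73.3%, and held 53.1%. Listed were 50% of those under 40% GC, 67.8% of those from 50% to under 60% and 64.8% of those at 60% or more. Across the 284 listed miRNAs, which share 1 array, Spearman's rho between GC content and log2 signal was -0.14 and Pearson's r -0.13.

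The deposited table marked 663 of the 665 probes with a signal on the normoxia array as detected. The other 2 were miR-27a* and the precursor of miR-602. It also marked 4 probes as detected that were at 0 on both arrays, those of miR-1301, miR-548e, miR-99a* and the precursor of miR-30c-1.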
